A study of Mus musculus with 19 samples.

Results

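The genes described here are 10 genes of the NRF2 oxidative stress response: Nfe2l2, Keap1, Hmox1, Gclc, Gclm, Txnrd1, Srxn1, Slc7a11, Gsta4 and G6pdx. They were chosen by symbol for their known place in this pathway, and each matched 1 row of the 48795 genes measured. The values come from bulk RNA sequencing of 19 primary p53/MCA sarcomas of mice, 11 labelled Rag2-/- and 8 labelled Rag2+/-. Rag2-/- mice lack mature T and B lymphocytes but keep natural killer and myeloid cells, and their Rag2+/- littermates are immune-competent. In both groups, mice of 6 to 10 weeks received an adenovirus carrying Cas9 and a guide RNA against Trp53 in the gastrocnemius muscle, followed by 300 µg of 3-methylcholanthrene (MCA). MCA is a polycyclic aromatic carcinogen. The mice received no therapy, and each tumor was collected whole at 70 to 150 mm3, so a library holds tumor cells together with immune, vascular and muscle cells. Male and female mice were used, and the labels do not give the sex of the mouse behind a tumor. Numbers such as Rag2-/- tumor 4 only name a tumor.

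NRF2, the transcription factor encoded by Nfe2l2, drives the defense of cells against oxidants and reactive chemicals. KEAP1 holds NRF2 in the cytoplasm and hands it to a CUL3 ubiquitin ligase for degradation. When oxidants or electrophiles modify KEAP1, NRF2 escapes, pairs with a small MAF protein and binds antioxidant response elements near genes for glutathione synthesis, thiol reduction, heme breakdown and NADPH supply. Because NRF2 is controlled largely as a protein, the mRNA level of Nfe2l2 does not by itself measure its activity.

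Windows from 250 bases before to 50 bases after the transcription start, taken from RefSeq on GRCm38.p6, were matched for 7 of the 10 genes, as 9 windows. Hmox1, Gclc and Gsta4 were not matched. The core letters of the antioxidant response element, TGACNNNGC, and the close variant TGAGNNNGC were searched on both strands. At least 1 of them was found for 6 of these 7 genes, all but Keap1, and in 6 of the 9 windows. Of all 32851 windows, 27.8% held at least 1 of these motifs. The matches before the start are printed here with 10 flanking bases on each side, because these letters are the known core of sites that NRF2 binds. Capitals mark the motif, each run is written 5′ to 3′ on the strand that holds it, and that strand follows in parentheses.
Nfe2l2, chr2:75704885-75704913 (minus): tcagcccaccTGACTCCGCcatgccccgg
Slc7a11, chr3:50443692-50443720 (plus): aactccagctTGAGAAAGCgccaacatta
Gclm, chr3:122245413-122245441 (minus): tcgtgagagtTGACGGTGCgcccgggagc
Txnrd1, chr10:82859104-82859132 (minus): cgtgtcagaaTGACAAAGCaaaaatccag
Srxn1, chr2:152105469-152105497 (plus): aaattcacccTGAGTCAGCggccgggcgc
Srxn1, chr2:152105356-152105384 (minus): ccagagaggaTGAGTCGGCtctcagtaga
G6pdx, chrX:74428919-74428947 (plus): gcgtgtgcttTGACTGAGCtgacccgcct
The matches begin 45 and 158 bases before the start of Srxn1, 57 before that of G6pdx, 92 before Txnrd1, 97 before Slc7a11, 134 before Gclm and 240 before Nfe2l2. The Srxn1 match that begins 45 bases before the start contains TGAGTCA, a letter pattern of AP-1 sites, so these letters cannot tell an antioxidant response element from an AP-1 site. Starts differ between annotations. In the GENCODE vM21 gene models on the same assembly, the Txnrd1 match lies in an intron, 25163 bases after the outermost start of the gene, and the G6pdx match overlaps an exon, 257 bases after it, so the RefSeq starts used for both genes are internal ones. The other printed matches lie outside the gene models, before their outermost starts. A further Srxn1 match lies after the start and is not shown. A match is a stretch of letters, and no binding was measured in these tumors.

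Levels are FPKM with an upper-quartile normalization by the authors (fragments per kilobase of transcript and per M fragments) on the log2 scale after 0.1 was added, with a floor of −3.322. Means are given ± SD. The depth, estimated from the low values, was 24.7 to 33.6 M fragments on genes in 18 tumors and 5.23 M in Rag2-/- tumor 10. The estimated fragments behind a value were fewest for Gsta4, at 12 in that shallow tumor and 208 in the highest, and for Slc7a11, at 38 to 824. Cd3e, a T cell receptor subunit, was at the floor in each of the 11 Rag2-/- tumors, and its mean ± SD was 1.47 ± 1.17 (n = 8) in Rag2+/- tumors. Rag2 itself was low in both groups and higher under the Rag2-/- label, with means of −0.34 ± 0.74 (n = 11) and −1.31 ± 0.70 (n = 8). The study used a Rag2-null allele described in earlier work and does not itself say which part of the gene it removes, so its gene-level value does not check the labels, and the groups are named as labelled. Of the muscle, macrophage, mesenchymal and cell cycle lists, every marker had a median above 0, and the mesenchymal list mean was 5.13 to 7.62 over the 19 tumors. Skeletal muscle genes ranged from 4.003 to 12.7 as a list mean, and the muscle that came along with a tumor cannot be told apart from muscle genes made in tumor cells.

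The 10 genes spanned a wide range of levels. By the median log2 value over 19 tumors, which is per transcript length, Hmox1 stood highest at 6.64. It was followed by Nfe2l2 at 5.84, Txnrd1 at 5.55, Srxn1 at 5.37, Gclm at 4.66, Keap1 at 4.51, G6pdx at 4.43, Gclc at 2.90, Gsta4 at 2.23 and Slc7a11 at 0.60. Within a tumor, the step from one gene to the next was larger than its SD over tumors at 4 places in this order. These were Hmox1 over Nfe2l2 (mean difference 1.149, SD 1.05, in 15 of 19 tumors), Srxn1 over Gclm (0.88, SD 0.45, 18 of 19), G6pdx over Gclc (1.64, SD 0.53, 19 of 19) and Gsta4 over Slc7a11 (1.69, SD 1.13, 18 of 19). The neighbors Nfe2l2 and Txnrd1, Txnrd1 and Srxn1, Gclm and Keap1, Keap1 and G6pdx, and Gclc and Gsta4 did not differ beyond that spread.

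**Figure D1:**
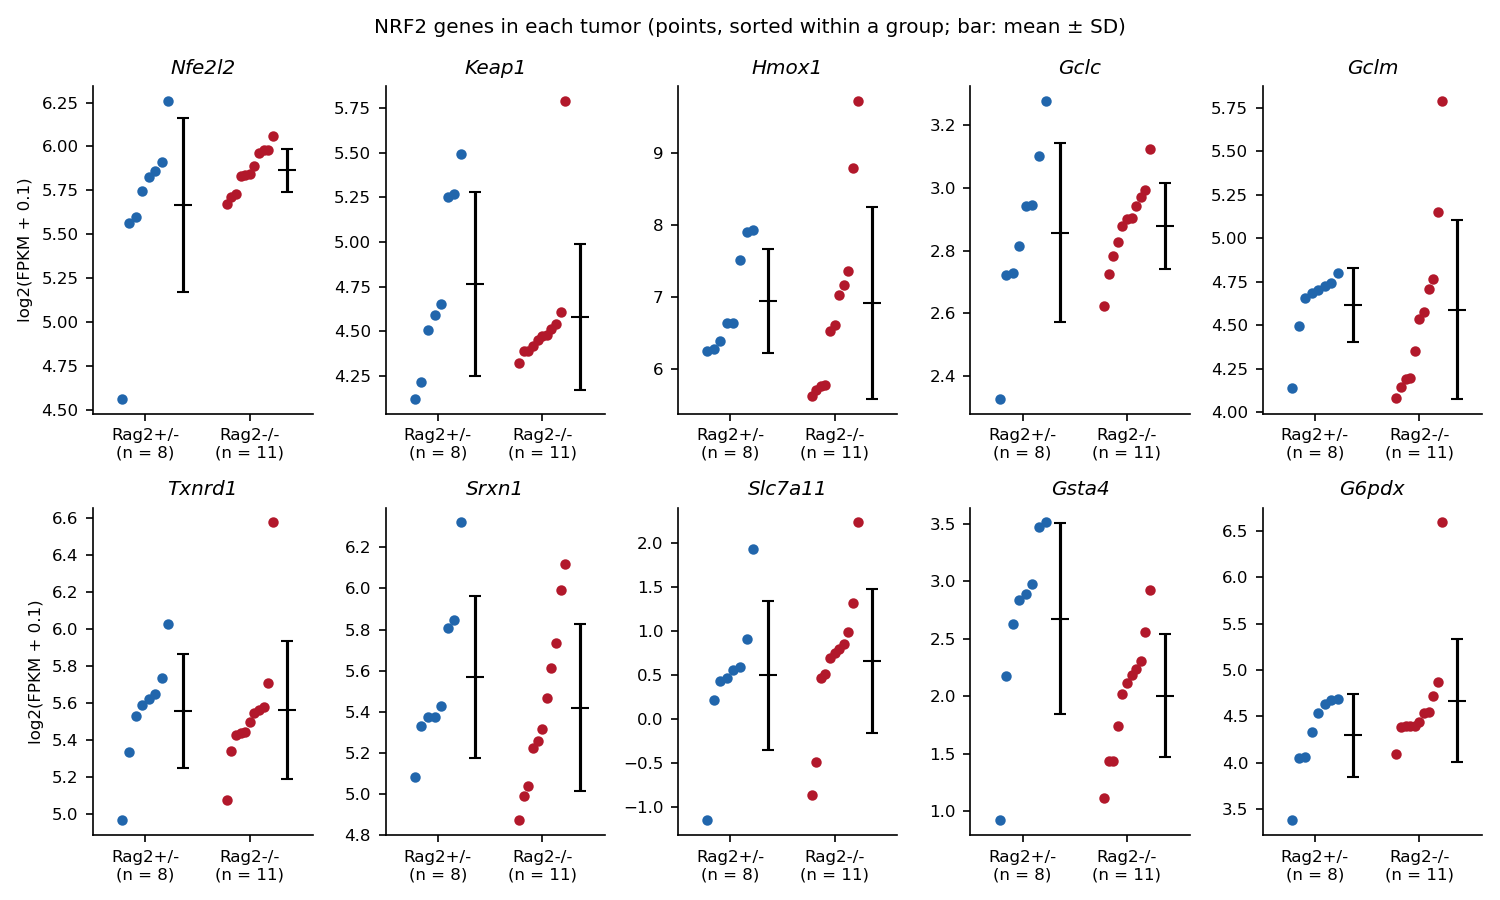
Level of each of the 10 NRF2 genes in every tumor, in log2(FPKM + 0.1), with Rag2+/- tumors (n = 8) in blue and Rag2-/- tumors (n = 11) in red. Points are sorted within a group and the bar beside them is the mean ± SD. The groups overlap for all 10 genes, and single tumors stand far above the rest for G6pdx and Gclm and far below for Nfe2l2.

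No gene of the NRF2 response was called different between the genotypes. In limma over 12826 genes, 0 of the 10 passed an adjusted p of 0.05, and 1, Gsta4, had an unadjusted p under 0.05. Of all genes tested, 4 (0.0312%) passed the adjusted threshold and 16.3% had an unadjusted p under 0.05. The 2 groups overlapped for all 10 genes, and 0.0156% of all genes tested did not overlap. The median difference of the 10 genes, Rag2-/- minus Rag2+/-, was −0.0096 and that of all genes tested was 0.062. A p above the threshold does not show that levels were alike, so each difference is given with its 95% interval. Fewer cells of a type and less RNA per cell cannot be told apart in these bulk tumors.

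Nfe2l2, on the minus strand at chr2:75675513-75704641 (GRCm38), was the steadiest of the 10 genes across Rag2-/- tumors. Its lowest, median and highest log2 values were 5.67, 5.85 and 6.06 in Rag2-/- tumors and 4.56, 5.78 and 6.26 in Rag2+/- tumors. The low value belonged to Rag2+/- tumor 5, and the other 7 Rag2+/- tumors were at 5.56 or above. The group means were 5.86 ± 0.12 (n = 11) and 5.67 ± 0.49 (n = 8), a difference of 0.20 (SE 0.16, 95% interval −0.13 to 0.52, limma adjusted p = 0.455). Without Rag2+/- tumor 5 the difference was 0.040, and among the 15 tumors that the study lists in its source data, 8 Rag2-/- and 7 Rag2+/-, it was 0.016. Keap1, at chr9:21229730-21239361 on the minus strand, encodes the sensor that restrains NRF2. It was at 4.32, 4.47 and 5.79 in Rag2-/- tumors and at 4.12, 4.62 and 5.49 in Rag2+/- tumors. A single Rag2-/- tumor and 3 Rag2+/- tumors made up the upper end. The difference was −0.18 (SE 0.21, 95% interval −0.62 to 0.25, limma adjusted p = 0.590). It was −0.31 without Rag2-/- tumor 9, and −0.081, −0.11 and −0.11 without Rag2+/- tumor 5, 7 or 8. An antisense gene, Gm16754, shares 510 of the 4693 exonic bases of Keap1, and the strand used in counting is not given in the sources used here.

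The level of Nfe2l2 over that of Keap1 sets the factor beside its inhibitor within a tumor. On the log2 scale it was 1.28 ± 0.36 (n = 11) in Rag2-/- tumors and 0.90 ± 0.94 (n = 8) in Rag2+/- tumors, with ranges of 0.27 to 1.56 and −0.93 to 2.04. Rag2+/- tumor 5 was the only one of the 19 in which Keap1 stood above Nfe2l2. The difference of 0.38 between groups had p = 0.254 in a two-sided exact permutation test over tumors. With each tumor left out in turn it ran from 0.12 without Rag2+/- tumor 5 (p = 0.6, same exact test) to 0.55 without Rag2+/- tumor 4 (p = 0.098, same exact test). Among the 15 tumors it was 0.24 (p = 0.31, same exact test).

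Hmox1, at chr8:75093621-75100589, encodes heme oxygenase 1, which breaks heme down to biliverdin, iron and carbon monoxide. It varied most of the 10 genes, with an SD of 1.09 over 19 tumors, higher than that of 86.5% of genes tested. Its values were 5.62, 6.61 and 9.72 (lowest, median, highest) in Rag2-/- tumors and 6.25, 6.64 and 7.94 in Rag2+/- tumors. In linear units it ranged from 49.2 to 846 FPKM, a 17.2-fold span. Rag2-/- tumors thus held both ends of the range, with 4 tumors below every Rag2+/- tumor and tumors 4 and 9 above every one. The group means nearly coincided, at 6.92 ± 1.33 (n = 11) and 6.94 ± 0.72 (n = 8), a difference of −0.026 with a wide 95% interval of −1.05 to 0.997 (limma adjusted p = 0.977). It was −0.31 without Rag2-/- tumor 4, −0.21 without Rag2-/- tumor 9 and −0.67 among the 15 tumors, and with each tumor left out in turn it ran from −0.31 to 0.12 and turned positive in 9 of 19 fits. Rag2-/- tumor 4, at 9.72, also had the highest mean of the macrophage list (7.25) and of the adipocyte list (8.82). Rag2-/- tumor 9, at 8.80, had the lowest mean of the cell cycle list (1.52). Rag2-/- tumor 5, the next in the adipocyte list at 6.29 and at 6.07 in the macrophage list, had a low Hmox1 of 5.78. Over the 19 tumors no relation of Hmox1 with these lists passed. With the macrophage list it had r = 0.59 (permutation p = 0.0105, adjusted p = 0.0525 over 40 relations) and rho = 0.54 (permutation p = 0.0194, adjusted p = 0.10), and r was 0.34 without Rag2-/- tumor 4 and Rag2+/- tumor 5 and 0.31 without the former alone. With the adipocyte list, added after seeing the data, it had r = 0.61 (permutation p = 0.00566, adjusted p = 0.0566 over 10 relations) and rho = 0.51 (permutation p = 0.0282, adjusted p = 0.141), and r was 0.65 without Rag2-/- tumors 4 and 5 and 0.40 without tumor 4 alone. With the cell cycle list it had r = −0.40 (permutation p = 0.0892, adjusted p = 0.197) and rho = −0.52 (permutation p = 0.0225, adjusted p = 0.10), and r was −0.29 without Rag2-/- tumor 9 and Rag2+/- tumor 8.

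The genes of glutathione synthesis showed a small spread for Gclc, a larger one for its partner Gclm and a wide one for the cystine carrier. Gclc, the catalytic subunit of glutamate-cysteine ligase at chr9:77754535-77794485, had an SD of 0.21, below that of nearly all genes tested (only 3.96% had a lower one). It was at 2.62, 2.90 and 3.12 in Rag2-/- tumors and at 2.33, 2.88 and 3.28 in Rag2+/- tumors, and its difference of 0.022 had a 95% interval of −0.22 to 0.26 (limma adjusted p = 0.917). That interval is the narrowest of the 10. Gclm, the modifier subunit of the same enzyme at chr3:122245557-122270732, was at 4.08, 4.54 and 5.79 in Rag2-/- tumors and at 4.14, 4.69 and 4.80 in Rag2+/- tumors. Its difference was −0.027 (95% interval −0.43 to 0.37, limma adjusted p = 0.938). The highest value was again that of Rag2-/- tumor 9. Gclm shares 296 of its 6291 exonic bases with Gm17494 on the other strand and 244 with the pseudogene Gm6061 on the same strand. Gclc stood below Gclm in all 19 tumors, by 1.71 ± 0.52 (n = 11) in Rag2-/- and 1.76 ± 0.33 (n = 8) in Rag2+/- tumors on the log2 scale. The group difference of 0.049 had p = 0.809 (two-sided exact permutation test). With a tumor left out, the genotype difference ran from −0.054 (without Rag2+/- tumor 5) to 0.082 (without Rag2+/- tumor 6) for Gclc and from −0.15 (without Rag2-/- tumor 9) to 0.023 (without Rag2-/- tumor 8) for Gclm.

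Slc7a11, on the minus strand at chr3:49892526-50443614, encodes the light chain of the cystine and glutamate exchanger that brings in cystine for glutathione. It was the lowest of the 10 genes, with a median of 1.41 FPKM and a range of 0.35 to 4.62. On the log2 scale it was at −0.86, 0.75 and 2.24 in Rag2-/- tumors and at −1.15, 0.51 and 1.94 in Rag2+/- tumors. The low and high tumors were spread over both groups. Its difference of 0.17 had a 95% interval of −0.63 to 0.96 (limma adjusted p = 0.798). It was 0.0997, 0.32, 0.28 and 0.0074 without Rag2-/- tumor 4, 6, 8 or 9, and 0.37 and −0.070 without Rag2+/- tumor 4 or 5. Among the 15 tumors it was −0.37.

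Txnrd1 and Srxn1 keep protein thiols reduced. Txnrd1, the cytosolic thioredoxin reductase at chr10:82833951-82897712, was at 5.08, 5.50 and 6.58 in Rag2-/- tumors and at 4.97, 5.60 and 6.02 in Rag2+/- tumors. Its difference of 0.0067 was the smallest of the 10 in size, with a 95% interval of −0.33 to 0.35 (limma adjusted p = 0.982). Srxn1, at chr2:152105516-152111376, encodes sulfiredoxin, which repairs overoxidized peroxiredoxins. It was at 4.87, 5.32 and 6.12 in Rag2-/- tumors and at 5.08, 5.40 and 6.32 in Rag2+/- tumors. The difference was −0.15 (95% interval −0.54 to 0.24, limma adjusted p = 0.626). With a tumor left out, the difference ran from −0.095 (without Rag2-/- tumor 9) to 0.073 (without Rag2+/- tumor 6) for Txnrd1 and from −0.22 (without Rag2-/- tumor 9) to −0.042 (without Rag2+/- tumor 3) for Srxn1.

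Over the 19 tumors, Gsta4 had the largest difference of the 10 genes. It encodes a glutathione transferase that conjugates the lipid peroxidation product 4-hydroxynonenal, and lies at chr9:78182774-78209349. Its values were 1.11, 2.11 and 2.92 in Rag2-/- tumors and 0.92, 2.86 and 3.51 in Rag2+/- tumors. Only 1 of the 11 Rag2-/- tumors exceeded the Rag2+/- median, yet the lowest tumor of all was Rag2+/- tumor 2. The means were 2.004 ± 0.53 (n = 11) and 2.67 ± 0.83 (n = 8), a difference of −0.67 (SE 0.30, 95% interval −1.30 to −0.042). The limma p was 0.0378 unadjusted and 0.303 adjusted, and 9.56% of all genes tested had an unadjusted p under 0.05 in this direction. With a tumor left out, the difference ran from −0.92 (without Rag2+/- tumor 2) to −0.55 (without Rag2+/- tumor 7). The limma unadjusted p was 0.00124 and 0.0876 there, and the adjusted p 0.16 and 0.541. The interval took in 0 in several of the fits with a tumor left out, and with Xist as a covariate (−1.28 to 0.046). The skeletal muscle list was also lower in Rag2-/- tumors, with a mean of 7.66 ± 1.997 (n = 11) as opposed to 9.84 ± 2.41 (n = 8) and a difference of −2.18 (p = 0.0477, adjusted p = 0.215 over 9 lists, two-sided exact permutation test). All 14 muscle markers had a median above 0, and the list mean ranged from 4.003 to 11.5 in Rag2-/- and from 6.16 to 12.7 in Rag2+/- tumors. With that list as a covariate the difference of Gsta4 was −0.35 (limma unadjusted p = 0.266). Under this covariate 4.16% of all genes tested had an unadjusted p under 0.05, as against 16.3% without it. The r of Gsta4 with the list was 0.18 within Rag2-/- and 0.72 within Rag2+/- tumors. Among the 14 tumors with a lower list mean r was 0.28 (permutation p = 0.343, adjusted p = 0.648). The part of muscle in the level of Gsta4 was not tested. Gsta4 belongs to a family of similar genes, and how shared reads were counted is not given in the sources used here.

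G6pdx, on the X chromosome at chrX:74409483-74429194 (minus strand), encodes the enzyme that opens the pentose phosphate pathway and makes NADPH. It was at 4.10, 4.43 and 6.59 in Rag2-/- tumors and at 3.38, 4.43 and 4.69 in Rag2+/- tumors. The group medians were alike, and Rag2-/- tumor 4, at 6.59, stood well above the next tumor, at 4.87. The difference of the means was 0.37 (SE 0.26, 95% interval −0.17 to 0.92, limma adjusted p = 0.412), and it was 0.18 without that tumor. G6pdx shares 418 of its 3080 exonic bases with Ikbkg on the other strand.

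**Figure D2:**
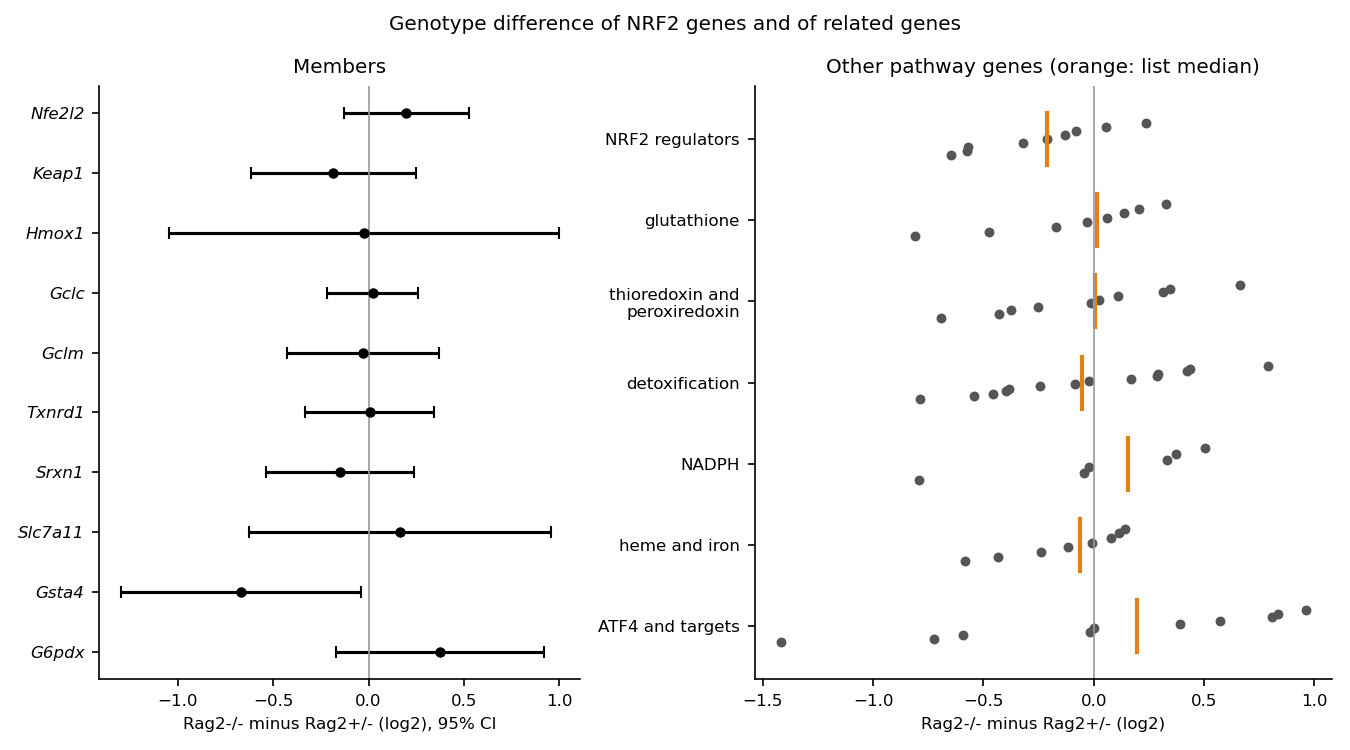
Difference in log2 level between Rag2-/- and Rag2+/- tumors. Left, the 10 NRF2 genes with the limma 95% interval, of which that of Gsta4 alone (−1.30 to −0.042) leaves out 0. Right, 1 point for each of the 65 tested genes of 7 related lists, with the list median in orange.

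Of the 19 tumors, 5 held the highest or lowest value of 2 or more genes. Rag2-/- tumor 9 had the highest value of 4 of the 10 genes (Keap1, Gclm, Txnrd1 and Slc7a11), and Rag2-/- tumor 4 that of Hmox1 and G6pdx. Rag2+/- tumor 5 had the lowest value of Nfe2l2, Gclc, Slc7a11 and G6pdx, Rag2-/- tumor 8 that of Gclm and Srxn1, and Rag2+/- tumor 2 that of Keap1 and Gsta4. In Rag2-/- tumor 9 and Rag2+/- tumor 5 the skeletal muscle list means were 11.5 and 12.7 and the cell cycle means 1.52 and 2.43. Rag2+/- tumors 7 and 8 had like values, with muscle means of 11.8 and 11.7 and cell cycle means of 2.21 and 2.18. Rag2+/- tumor 5 also had the lowest macrophage mean, 4.29. Rag2-/- tumors 4 and 9, the shallow Rag2-/- tumor 10 and Rag2+/- tumor 5 are the 4 that are absent from the source data published with the study. The study's methods state that samples failing quality control, or with too little RNA or DNA, were taken out, and do not name them. Whether this applies to these 4 tumors was not tested. Among the remaining 15 tumors, 8 Rag2-/- and 7 Rag2+/-, 2 of the 10 genes had a higher mean in Rag2-/- tumors, as against 5 among all 19. There the difference of Hmox1 was −0.67, that of Gsta4 −0.54 (limma unadjusted p = 0.138), that of Slc7a11 −0.37 and that of G6pdx 0.013. Those of Srxn1 and Gclm were −0.28 and −0.21. In that fit 0 of the 10 genes had an adjusted or unadjusted limma p under 0.05. Of all 12877 genes tested in it, 15 had an adjusted p under 0.05 and 22.1% an unadjusted one.

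**Figure D3:**
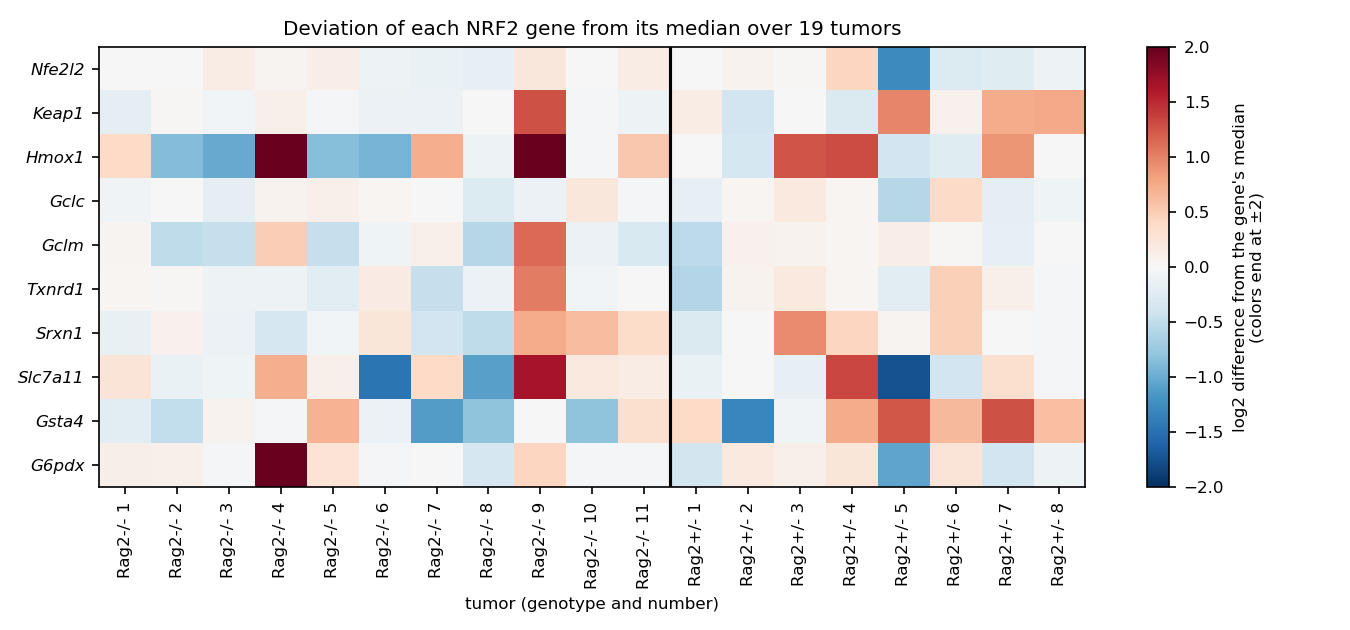
Deviation of each NRF2 gene from its own median over 19 tumors, in log2 units, with 1 column per tumor (11 Rag2-/- left of the line, 8 Rag2+/- right of it) and colors that end at ±2. Rag2-/- tumor 9 is red for Hmox1 (2.16, past the color limit), Keap1, Gclm, Txnrd1, Srxn1 and Slc7a11, and Rag2-/- tumor 4 is darkest for Hmox1 and G6pdx. Rag2+/- tumor 5 is blue for Nfe2l2, Slc7a11 and G6pdx and red for Gsta4 (1.24) and Keap1 (0.98).

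Across the 19 tumors the genes moved together only in part. Keap1 fell into separate levels, so its 9 pairs are left out of the counts here. Of the other 36 pairs, 30 had a positive Pearson r, the median r was 0.26, and 4 had an adjusted permutation p under 0.05 over all 45. Whether pairs of genes outside the NRF2 response give other counts in these tumors was not tested. Txnrd1 and Srxn1 (r = 0.67, p = 0.00097, adjusted p = 0.0197) and Hmox1 and Slc7a11 (r = 0.65, p = 0.00302, adjusted p = 0.034) also passed by rank in the permutation test, with Spearman rho of 0.71 (p = 0.00088, adjusted p = 0.0326) and 0.69 (p = 0.00145, adjusted p = 0.0326). Leaving out the 2 tumors whose first gene lay farthest from its median, r was 0.60 and 0.54. Within the genotypes it was 0.70 (Rag2-/-) and 0.67 (Rag2+/-) for Txnrd1 and Srxn1, and 0.69 and 0.66 for Hmox1 and Slc7a11.

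The other 2 pairs passed by r and not by rank. Nfe2l2 and Slc7a11 had r = 0.71 (p = 0.00026, adjusted p = 0.0117, permutation test) but rho = 0.53 (permutation p = 0.0206, adjusted p = 0.181), and r = 0.50 without Rag2+/- tumors 4 and 5. Within the genotypes r was 0.67 (Rag2-/-) and 0.91 (Rag2+/-). Hmox1 and Gclm had r = 0.70 (p = 0.00131, adjusted p = 0.0197, permutation test) and rho = 0.51 (permutation p = 0.0282, adjusted p = 0.181). That relation was at r = 0.82 within Rag2-/- and 0.0044 within Rag2+/- tumors, and at 0.44 without Rag2-/- tumors 4 and 9. Gclc and G6pdx passed by rank (rho = 0.65, adjusted permutation p = 0.0447) but not by r (0.51, adjusted permutation p = 0.161). Without Rag2-/- tumor 4, 8 pairs passed in place of 4, and among the 15 tumors 1 did, Gclc and G6pdx (r = 0.77, adjusted permutation p = 0.0274).

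**Figure D4:**
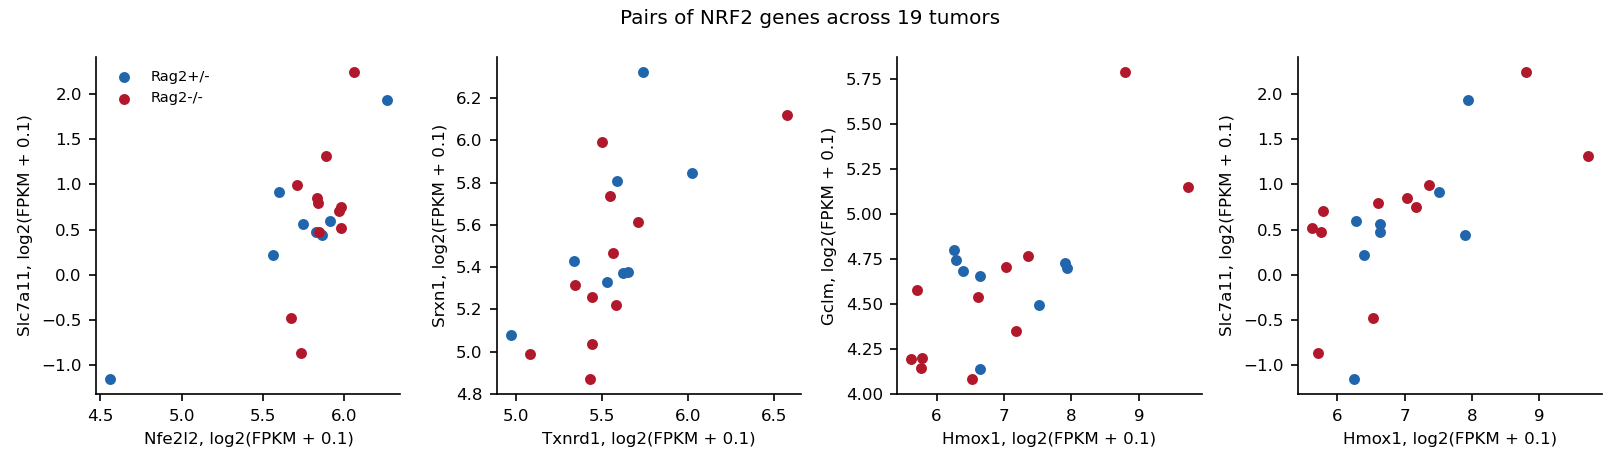
The 4 pairs of NRF2 genes with an adjusted permutation p of Pearson r under 0.05, 1 point per tumor, Rag2+/- in blue and Rag2-/- in red, both axes in log2(FPKM + 0.1). The r is 0.71 for Nfe2l2 and Slc7a11, 0.67 for Txnrd1 and Srxn1, 0.70 for Hmox1 and Gclm and 0.65 for Hmox1 and Slc7a11, and Rag2+/- tumor 5 is the point apart at the lower left of the first panel.

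Keap1 split the tumors into 4 with a high and 15 with a low level. In Rag2-/- tumor 9 and Rag2+/- tumors 5, 7 and 8 it was 5.25 to 5.79, and in the other 15 it was 4.12 to 4.65. The same 4 tumors stood apart in 3 marker lists. Their cell cycle list mean was 2.43 or less and 3.72 or more in the others. Their mesenchymal list mean was 6.04 or less and 6.69 or more in the others. In skeletal muscle genes they stood at 11.5 or above, together with Rag2+/- tumor 1, and all others at 9.58 or below. Since the tumors fall into separate groups, no correlation of Keap1 with these lists is given over all 19. Within the 15 tumors with a higher cell cycle mean, Keap1 had r = −0.38 with that mean (permutation p = 0.158, adjusted p = 0.52) and rho = −0.33 (permutation p = 0.232, adjusted p = 0.714). With the mesenchymal mean it had r = −0.60 there (permutation p = 0.0174, adjusted p = 0.20 over 40 relations) and rho = −0.52 (permutation p = 0.0493, adjusted p = 0.358). That r was −0.39 once the 2 tumors at the greatest distance from the list's median were left out. The part of muscle or of fewer dividing cells in the level of Keap1 was not tested. With skeletal muscle as a covariate its genotype difference was 0.16, not −0.18 (limma adjusted p = 0.999).

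Slc7a11 varied with the macrophage list. Over the 19 tumors its level had r = 0.68 (permutation p = 0.00353, adjusted p = 0.0282) and rho = 0.80 (permutation p = 6e-05, adjusted p = 0.0024) with the mean of 12 macrophage genes such as Csf1r, Cd68 and C1qa, adjusted over 40 relations. All 12 had a median above 0. Within Rag2-/- tumors r was 0.48 and within Rag2+/- tumors 0.92. Once the 2 tumors at the greatest distance from the list's median were left out, r was 0.62, and among the 15 tumors 0.71. Leaving out Rag2+/- tumor 5 alone gave r = 0.52, which no longer passed (permutation p = 0.0437, adjusted p = 0.287 over 40 relations), and rho = 0.76, which did (permutation p = 0.00036, adjusted p = 0.0144). The part of macrophages in the level of Slc7a11 was not tested. G6pdx had r = 0.82 with the same list (permutation p = 0.00212, adjusted p = 0.0212) but rho = 0.47 (permutation p = 0.0457, adjusted p = 0.183). That relation rests on Rag2-/- tumor 4 and Rag2+/- tumor 5, since r was 0.12 without them. The macrophage list itself was at 5.90 ± 0.50 (n = 11) in Rag2-/- and 5.60 ± 0.58 (n = 8) in Rag2+/- tumors (p = 0.301, two-sided exact permutation test).

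**Figure D5:**
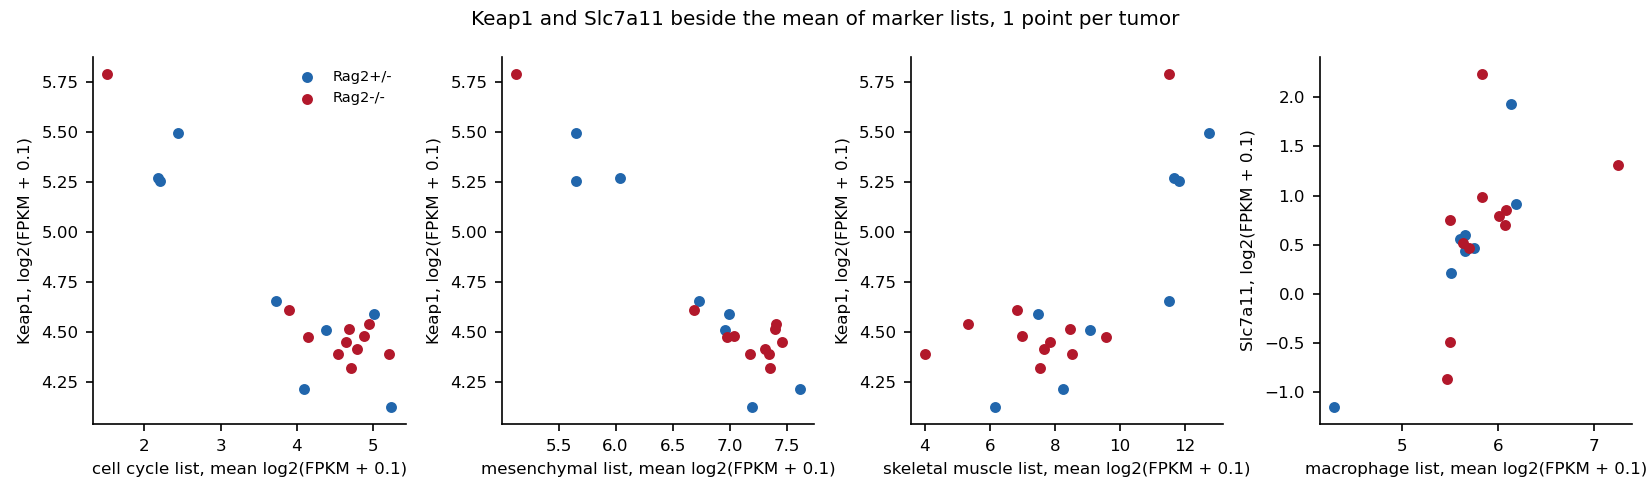
Keap1 beside the mean of the cell cycle, mesenchymal and skeletal muscle lists, and Slc7a11 beside that of the macrophage list, 1 point per tumor, all in log2(FPKM + 0.1), Rag2+/- in blue and Rag2-/- in red. Keap1 is at 5.25 or above in 4 tumors, which are the 4 lowest in the cell cycle and mesenchymal lists, and Slc7a11 spans −1.15 to 2.24.

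The genes most like each NRF2 gene across the tumors, by Pearson r over the 19 tumors and with no test, differed from gene to gene. Nfe2l2 was nearest to Cytip (0.90), Nupr1 (0.89) and Slc3a2 (0.86). Slc3a2 encodes the heavy chain that pairs with the product of Slc7a11. Keap1 was nearest to Jtb, Gucd1 and Maf1, with r of 0.81, 0.79 and 0.55 within the 15 tumors of low Keap1. Hmox1 was nearest to Rbm47 (0.86), Pi4k2a (0.83) and Gda (0.82). Gclm was nearest to Prdx1 (0.77), a peroxiredoxin, and Gsr (0.76), glutathione reductase, both of them listed among the pathway genes, and then to Rhbdf2 (0.76). Txnrd1 was nearest to Psma5 (0.78), a proteasome subunit, Katna1 (0.78) and Ppa1 (0.76), and Srxn1 to Crem (0.76), 1810037I17Rik (0.76) and Tbcb (0.74). Slc7a11 was nearest to Srgn (0.91), the serglycin of blood cell granules, Birc3 (0.89), an apoptosis inhibitor, and Il2rg (0.87), the shared gamma chain of cytokine receptors. Gclc was nearest to Nt5c (0.88), Fam32a (0.82) and Nipsnap3b (0.82), Gsta4 to Bckdhb (0.79), Ppdpf (0.78) and Lrfn3 (0.77), and G6pdx to Lpgat1 (0.96), Atp6v1a (0.93) and Fads3 (0.93). Most of these values were lower among the 15 tumors of the source data. For Nfe2l2, r there was 0.45 with Cytip and 0.60 with Slc3a2. For Gclm it was 0.60 with Prdx1, 0.49 with Gsr and 0.41 with Rhbdf2. It was 0.48 for G6pdx with Atp6v1a, 0.64 for Hmox1 with Pi4k2a and 0.57 for Txnrd1 with Psma5. A few were higher, such as 0.85 for Gsta4 with Bckdhb. Gclm and Prdx1 had r = 0.91 within Rag2-/- and 0.15 within Rag2+/- tumors.

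The rest of the pathway gave no call either. Of 71 further genes in 7 lists, 65 were tested, and 0 passed an adjusted limma p of 0.05 in either direction. An unadjusted p under 0.05 was found for 4 genes higher and 4 lower in Rag2-/- tumors, where 6.74% and 9.56% of all genes tested had one. The median difference was −0.021 over the 65 genes and 0.062 over all genes tested. The 6 genes below the level for testing were Gpx2, Ggt1, Gsta1, Gsta2, Gsta3 and Aldh3a1, and Gpx2 was at the floor in every tumor.

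Among the 9 regulators of NRF2, 7 had a lower mean in Rag2-/- tumors, with a list median difference of −0.21, where 5617 of all 12826 genes tested had a lower mean. Cul3, the scaffold of the ligase that KEAP1 serves, was at 5.46 ± 0.35 (n = 11) and 6.03 ± 0.63 (n = 8), which differ by −0.57. Its limma p was 0.0169 unadjusted and 0.301 adjusted. Sqstm1, the autophagy receptor p62 that binds KEAP1, differed by −0.57 (limma p = 0.04 unadjusted, 0.304 adjusted). In the 8 glutathione genes tested the median difference was 0.015, with Slc3a2 at 0.33 and the lipid peroxide reductase Gpx4 at −0.48 (limma adjusted p = 0.305 and 0.313). In the 10 thioredoxin and peroxiredoxin genes it was 0.0045, with the stress gene Sesn2 at 0.34 and mitochondrial Txn2 at −0.43 (limma adjusted p = 0.305 and 0.306).

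Of the detoxification genes, 14 of 18 were tested, with a median difference of −0.053. Ugt1a6a, a glucuronosyltransferase of the Ugt1a cluster whose genes share exons, differed by 0.79 and the glutathione transferase Gstp1 by −0.46 (limma adjusted p = 0.301 and 0.305). Nqo1, the quinone reductase often read as an NRF2 target, was at 2.45 ± 0.90 (n = 11) in Rag2-/- and 3.24 ± 1.03 (n = 8) in Rag2+/- tumors, a difference of −0.79 (95% interval −1.67 to 0.088, limma adjusted p = 0.328). The 6 NADPH genes had a median difference of 0.16, with Pgd, the pentose phosphate enzyme after G6pdx, at 0.37 and malic enzyme Me1 at −0.79 (limma adjusted p = 0.305 and 0.306). Among the 8 heme and iron genes the median was −0.061, and the lowest p belonged to Fech, which completes heme, at −0.58, and to the ferritin heavy chain Fth1 at −0.43 (limma adjusted p = 0.358 and 0.416). Over Atf4, which encodes the factor of the amino acid stress response that also drives Slc7a11, and 9 of its targets, the median was 0.20. There the glutathione-degrading enzyme Chac1 differed by −1.42 and the serine synthesis enzyme Psat1 by 0.81 (limma adjusted p = 0.305 and 0.309).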

How the data were processed

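RNA from 19 tumors was analysed, 1 library and 1 tumor per column, with 0 columns unmatched. In the study's methods, reads were mapped by the authors with OSA (Omicsoft Array Studio, mouse B38, Ensembl R86 genes), with FPKM scaled by the upper quartile before the log2. The processing notes of the submitters instead name mm10, Trimmomatic 0.36, STAR and HTSeq. The deposited log2 values end at −3.322, so 0.1 had been added, and 63.0% of values lie at this floor. Upper-quartile scaling makes every level relative to the other genes of that tumor. Since the values are not counts, no count test was used.

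Genes with a mean log2 value above 0 (12826 of 48795) entered limma 3.58.1 (R 4.3.3, trended variance), and p-values were adjusted by Benjamini-Hochberg over all of them, with a threshold of 0.05. A self-test of limma used generated data with differences of known size. There limma recovered 57% of genes at a log2 difference of 1 and 89% at 2, and 3.31% of its calls were false. Recovery in the tumors themselves was not tested. Single values were compared by two-sided exact permutation over tumors (smallest p 2.65e-05), and correlations by 100000 permutations (scipy 1.17.1). A 95% interval is limma's. Depth was estimated from the steps between low values with GENCODE vM21 lengths, another release than the authors', so fragments are approximate and cover counting error only. Coordinates of genes are GENCODE vM21 (GRCm38).

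The members, the lists and the tests were chosen with earlier results of these data known. Named are all 10 members, Nqo1, the 2 genes of lowest p in each list, the 3 genes of highest r with each member, and Rag2 and Cd3e. Genes named for an overlap, Csf1r, Cd68 and C1qa, and the untested genes were named for what they are. Other marker lists, of neutrophils, adipocytes, endothelial cells, red blood cells and T cells, gave an adjusted p of 0.451, 0.823, 0.403, 0.823 and 2.38e-04 between genotypes (exact permutation test over 9 lists). Those of macrophages, mesenchymal cells and the cell cycle gave 0.451, 0.403 and 0.403. The labels do not say whether tumors share a litter or cage, so p-values measure the spread between these tumors.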

Additional observations from a re-analysis of the deposited data

Results flagged for a closer look

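Among the 8 Rag2+/- tumors, 21 sets of values were examined for a tumor far from the rest, and 4 sets held one, where chance gives about 1 in 20. These sets are not independent, since 3 of the 4 are the same tumor in related values. The 11 Rag2-/- tumors were too many for this rule. Among them, Keap1 was at 5.79 in Rag2-/- tumor 9, with the next tumor at 4.61, and G6pdx at 6.59 in Rag2-/- tumor 4, with the next at 4.87. Nfe2l2 was at 4.56 in Rag2+/- tumor 5, with the next tumor at 5.56. Gclm was at 4.14 in Rag2+/- tumor 1, with the next at 4.49. Gclc minus Gclm was −2.47 in Rag2+/- tumor 5, with the next at −1.84. The mean of the macrophage list was 4.29 in the same tumor, with the next at 5.51. Rag2+/- tumor 5 also had the highest skeletal muscle mean, 12.7, and the part of muscle in its values was not tested.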

How the results depend on the processing

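No paired analysis was possible because the labels pair no Rag2-/- tumor with a Rag2+/- tumor and the tumor numbers only name tumors. The count of NRF2 genes called stayed at 0 of 10 in limma under 11 other settings and with each tumor left out, and the lowest of the 299 adjusted p-values of these genes was 0.13. Slc7a11 had no value with a minimum mean of 2. The direction changed in 14 of 109 differences under the other settings. With the skeletal muscle covariate the differences were 0.16 for Keap1, 0.23 for Hmox1, −0.10 for Gclc, 0.051 for Gclm and −0.0061 for Txnrd1. With the Xist covariate they were 0.22 for Hmox1, −0.017 for Gclc and 0.058 for Gclm, and after quantile normalization 0.14 for Hmox1 and −0.0023 for Gclc. Among the 15 tumors they were −0.083 for Gclc, −0.13 for Txnrd1 and −0.37 for Slc7a11. With the adipocyte covariate, added after seeing the data, Txnrd1 was at −0.0012. Other differences kept their direction but moved in size. Nfe2l2 was at 0.10 with the muscle covariate, 0.12 with Xist and 0.30 after quantile normalization. Keap1 was at −0.029 with Xist, and Srxn1 at −0.050 after quantile normalization. With the muscle covariate Slc7a11 was at 0.30 and G6pdx at 0.20. The cause of these changes was not tested. With a tumor left out, 20 of 190 differences changed direction, and the ranges were −0.31 to 0.12 for Hmox1, −0.054 to 0.082 for Gclc, −0.15 to 0.023 for Gclm, −0.095 to 0.073 for Txnrd1 and −0.070 to 0.37 for Slc7a11. Those that kept their direction ranged from 0.040 to 0.28 for Nfe2l2, −0.31 to −0.081 for Keap1, −0.22 to −0.042 for Srxn1, −0.92 to −0.55 for Gsta4 and 0.18 to 0.43 for G6pdx. The group difference of Gclc minus Gclm was −0.052 to 0.18, below 0 without Rag2+/- tumor 5 or Rag2-/- tumor 5. Over all genes, the count called was 4, but 15 among the 15 tumors, 26 with no filter, 2 with the muscle covariate and 0 with a minimum mean of 2, where limma gave 1676 genes an unadjusted p under 0.05. It was 3 to 7 with a tumor left out, and 7 without Rag2-/- tumor 9 or without Rag2+/- tumor 5. Correlated pairs numbered 4, but 1 among the 15 tumors and 3 to 8 with a tumor left out, 8 without Rag2-/- tumor 4. The adipocyte list, added after seeing the data, had no adjusted permutation p under 0.05 with any of the 10 genes. The depth of Rag2-/- tumor 10 limits Gsta4 and Slc7a11 most.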
